A study of Homo sapiens with 2 samples.

Results

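Vimentin, 6 keratins and lamin A were followed in A549 lung adenocarcinoma cells that carry a red fluorescent vimentin reporter. The 8 genes, VIM, KRT7, KRT8, KRT18, KRT19, KRT80, KRT81 and LMNA, were taken by symbol from the 57736 gene entries of the deposited table. The data were 2 libraries of the AmpliSeq Transcriptome kit, which reads each targeted gene through a short amplified segment, each made from 10 ng of total RNA. The first came from cells in which transforming growth factor beta (TGF-beta) was used to induce epithelial to mesenchymal transition (EMT), and it is called the EMT-labelled library here. The second came from cells given no treatment. Both groups share the cell line, a genotype labelled WT and the reporter. Neither the way the fluorescent protein is joined to vimentin nor the dose and duration of TGF-beta is given in the sources used here, and nothing in the labels says whether the libraries came from separate cultures. With 1 library per group there is no replicate, no test of the treatment and no p-value.

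Intermediate filaments are rope-like polymers of the cytoskeleton and of the inner nuclear membrane. Keratins form obligate pairs of a type I chain (KRT18, KRT19) with a type II chain (KRT7, KRT8, KRT80, KRT81), and KRT8 with KRT18 is the typical pair of simple epithelia such as the lung lining. Vimentin is a type III filament protein of mesenchymal cells, and a rise of vimentin with a loss of epithelial keratins is a textbook description of EMT. Lamin A, encoded by LMNA, lines the nucleus of most differentiated cells and stiffens it.

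In KRT7 and KRT80 most of the untreated library's counts lay in 1 exon or in entries overlapping it, so those exons are shown first. Sequences are from the GENCODE release 29 transcripts (GRCh38), matched to the deposited exons by transcript, exon order and exon length, and all are coding. They are KRT7 exon 2 of 9 (chr12:52235155-52235366, plus strand, 212 bases) and KRT80 exon 5 of 9 (chr12:52173600-52173764, minus strand, 165 bases).
KRT7: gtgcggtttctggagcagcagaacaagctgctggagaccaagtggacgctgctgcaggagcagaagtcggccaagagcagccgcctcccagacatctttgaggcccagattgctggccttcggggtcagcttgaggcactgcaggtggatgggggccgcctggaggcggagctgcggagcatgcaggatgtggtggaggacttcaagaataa
KRT80: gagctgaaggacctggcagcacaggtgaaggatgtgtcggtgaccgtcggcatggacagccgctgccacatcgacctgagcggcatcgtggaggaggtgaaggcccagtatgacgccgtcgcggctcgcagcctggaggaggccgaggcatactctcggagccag

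Relative to the bulk of the genes, vimentin, lamin A and 3 of the keratins were lower in the EMT-labelled library and KRT19 was within counting error, whereas all of them were higher when scaled on ribosomal protein genes. VIM was 6.40-fold, LMNA 4.89-fold, KRT7 4.43-fold, KRT80 4.08-fold and KRT8 2.62-fold lower, but KRT8 with its pseudogenes added was not lower (log2 ratio 0.21, -0.13 to 0.55). Outside the stretch of overlapping exons with the most counts, VIM (20 counts against 35), LMNA (11 against 16) and KRT80 (7 against 9) had intervals that included no change. Those of KRT7 and KRT8 did not. The untreated counts mostly decided which stretch that was. KRT18 and KRT81 had too few counts for a ratio. The 5 lower of the 6 genes compared stand beside a background of 26.7% of 15401 genes that were at least 2-fold lower. None of these differences has a replicate check, and in such bulk RNA fewer cells of a type and less RNA per cell cannot be told apart.

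Depth set the precision. The rounded counts summed to 597133 in the EMT-labelled library and 674784 in the untreated library, with 43.7% and 32.7% of the expected counts in the 10 genes with the most. Levels are CPM, the usual scaling of counts to a library total, after scaling by the trimmed mean of M-values (TMM), and 1 count equals 1.77 CPM in the EMT-labelled and 1.40 CPM in the untreated library. Intervals are exact at 95% and cover counting error only, since PCR copies without a molecular identifier cannot be counted as separate molecules. Levels of common cell genes moved in the same direction. Of 72 cytosolic ribosomal protein genes with at least 5 CPM in 1 library, 62 were at least 2-fold lower in the EMT-labelled library and 2 higher, around a median log2 ratio of -3.28. Of 12 such housekeeping genes 11 were lower (median -3.50), among them GAPDH with 115 counts against 2764 and ACTB with 34 against 463. By the same rule 26.7% of all 15401 genes were lower and 22.0% higher. Some of the lower ribosomal protein genes, RPL29 among them, passed the filter only through the untreated library, and a higher one only through the EMT-labelled library. Scaling on the ribosomal protein genes added 3.53 to every log2 ratio, so that a gene whose ratio lay nearer to 0 than that became higher. The part of these genes in the members' ratios was not tested.

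VIM lies on the plus strand of chromosome 10 (hg19, 17270258 to 17279592). It was counted 56 times in the EMT-labelled and 452 times in the untreated library. These are 99.1 CPM (74.9 to 129) and 634 CPM (577 to 695). The log2 ratio was -2.68 (-3.10 to -2.27), so the library labelled with EMT held the lower level of the mesenchymal filament gene whose reporter the cells carry. The intervals of the 2 levels did not overlap.

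**Figure D1:**
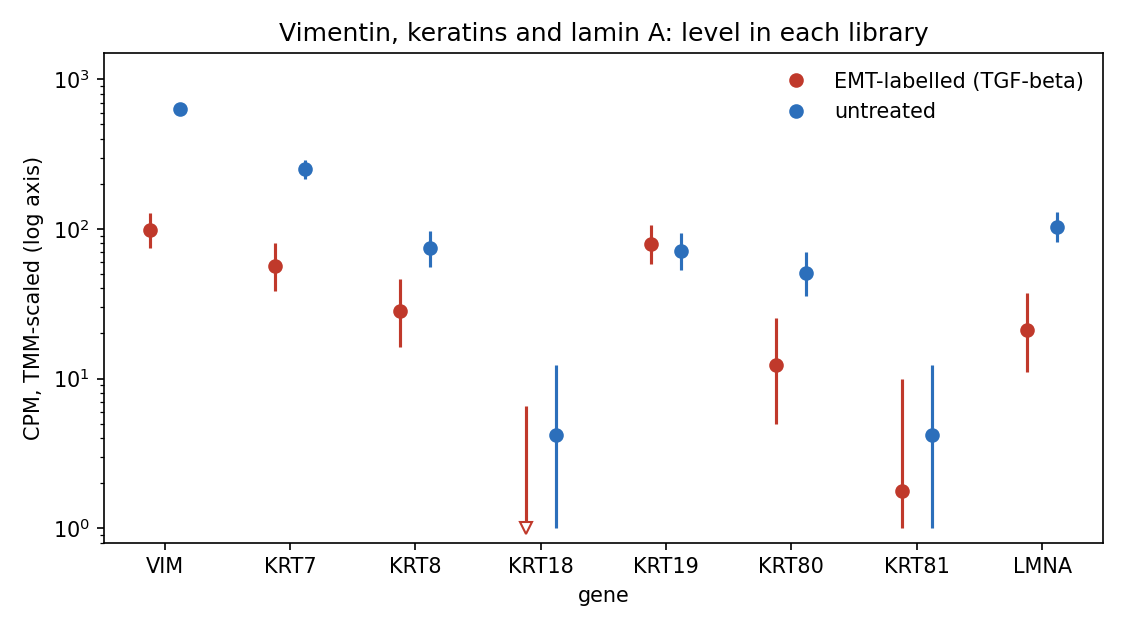
Level of each of the 8 genes in the EMT-labelled (red) and untreated (blue) library, in TMM-scaled CPM on a log axis. Points are single libraries, lines are exact 95% Poisson intervals cut at 1 CPM, and the open triangle is a count of 0. VIM is at 99.1 CPM in the EMT-labelled and 634 CPM in the untreated library, and the KRT19 intervals overlap.

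Among type II keratins, KRT7 (chromosome 12, 52626304 to 52645970, plus strand), a keratin of glandular and ductal epithelia, had 32 counts against 179. Its levels were 56.6 CPM (38.7 to 79.9) and 251 CPM (216 to 291), and the log2 ratio was -2.15 (-2.74 to -1.60). KRT8 (chromosome 12, 53290977 to 53343738, minus strand) had 16 counts against 53, or 28.3 CPM (16.2 to 46.0) against 74.3 (55.7 to 97.2). Its log2 ratio was -1.39 (-2.30 to -0.56). KRT7 was thus lower by more than 2-fold over its whole interval, whereas the KRT8 interval reached inside 2-fold. KRT80 (chromosome 12, 52562780 to 52585784, minus strand), a further type II chain, had 7 counts against 36 and a log2 ratio of -2.03 (-3.44 to -0.84). KRT81 (chromosome 12, 52679697 to 52685318, minus strand), a hair keratin, had 1 count against 3. With so few counts no ratio is given, and a difference was not detectable at this depth.

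Of the type I chains, KRT19 (chromosome 17, 39679869 to 39684560, minus strand), the smallest keratin, had 45 counts in the EMT-labelled library and 51 in the untreated library. That is 79.6 CPM (58.1 to 107) against 71.5 CPM (53.2 to 94.0), and the log2 ratio of 0.16 (-0.46 to 0.76) included no change. KRT18 (chromosome 12, 53342655 to 53346685, plus strand), the partner of KRT8, had 0 counts against 3. A count of 0 allows up to 5.31 CPM in the EMT-labelled library, taken as 3 counts, or 6.53 CPM as the exact upper limit, and the untreated level was 4.21 CPM (0.87 to 12.3). In these lung adenocarcinoma cells, a defining chain of simple epithelium was at or near 0 in both libraries by its own gene entry.

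LMNA (chromosome 1, 156052364 to 156109880, plus strand) had 12 counts against 74. Its levels were 21.2 CPM (11.0 to 37.1) and 104 CPM (81.5 to 130), and the log2 ratio was -2.29 (-3.30 to -1.40). The nuclear filament gene was lower by an amount like that of VIM and KRT7, and the intervals of these 3 ratios overlapped.

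A gene was compared when it had at least 5 CPM in 1 of the libraries, and a count of 0 was set to 3. Of the 8 genes 6 passed, of which 5 were lower by 2-fold or more and 0 were higher by as much. Over all 15401 genes compared, 26.7% were lower and 22.0% higher by that rule. The members' median log2 ratio was -2.09, against 0.01 over all genes. At 20 CPM the same 6 genes passed, and 36.0% of 5341 genes were lower and 18.5% higher. At 100 CPM only VIM, KRT7 and LMNA passed, all lower, where 34.3% of 1014 genes were lower and 17.4% higher. These 3 passed that filter only through the untreated library, as did KRT80 at 20 CPM, so nothing is read from their direction there.

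**Figure D2:**
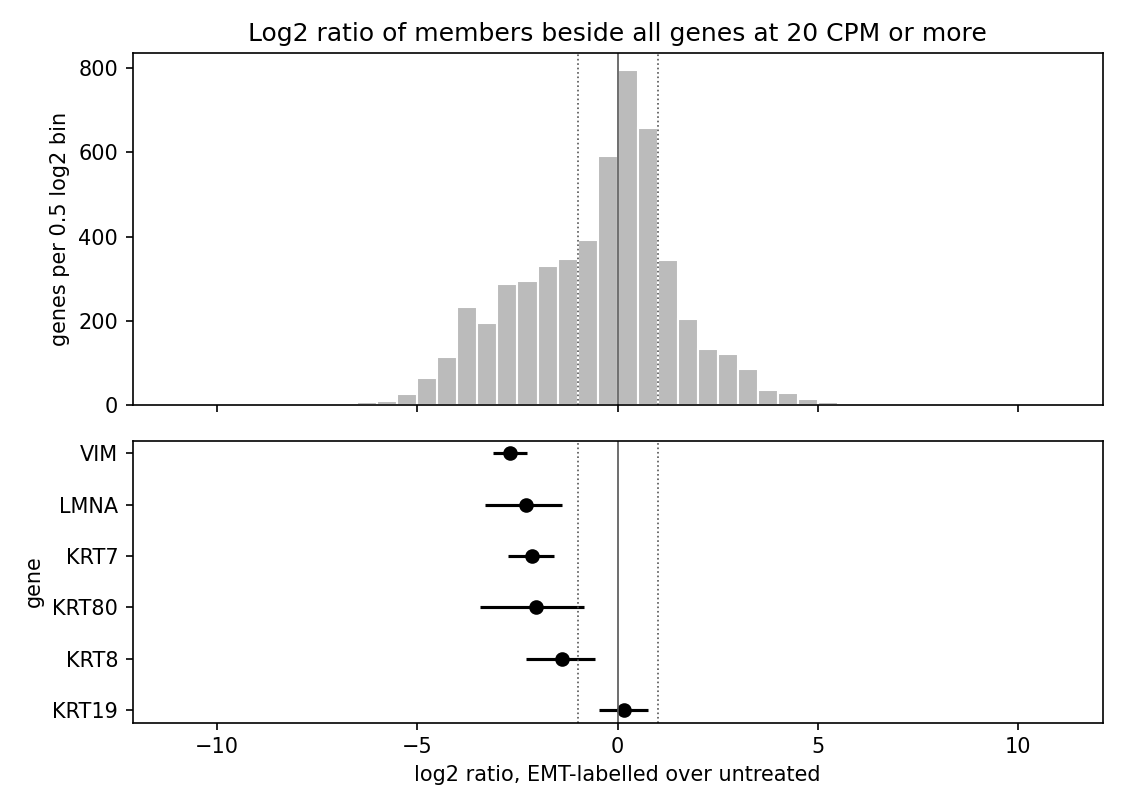
Upper panel, log2 ratio (EMT-labelled over untreated) of all 5341 genes with at least 20 CPM in 1 library, as genes per 0.5 log2 bin. Lower panel, the 6 members that passed, with exact 95% intervals; dotted lines mark 2-fold. With TMM scaling VIM, LMNA, KRT7, KRT80 and KRT8 lie below the lower 2-fold line and KRT19 near 0; with ribosomal protein scaling all 6 are above 0.

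Within each library, vimentin was set against the keratins. VIM held 56 of the 157 VIM and keratin counts in the EMT-labelled library, 35.7% (28.2% to 43.7%, Clopper-Pearson). In the untreated library it held 452 of 777, 58.2% (54.6% to 61.7%). The vimentin share was thus lower in the library labelled EMT, and these shares need no library scaling. The VIM to keratin ratio was 0.554 against 1.39, a log2 difference of -1.33 (-1.87 to -0.79). With the pseudogenes of KRT8 and KRT18 added to the keratins, that difference was -2.88. Each gene is amplified with its own efficiency, so a share is one of counts and not of molecules.

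The difference was smaller without KRT19. That gene made up 44.6% of the keratin counts in the EMT-labelled library and 15.7% in the untreated library, while KRT7 made up 31.7% and 55.1%. Against KRT19 alone, the VIM ratio had a log2 difference of -2.83 (-3.57 to -2.08), and against KRT8 alone -1.28 (-2.23 to -0.28). Set against KRT7 the difference was -0.53 (-1.23 to 0.20), and against KRT80 -0.65 (-1.93 to 0.83). Both intervals include no difference, so the ratios of VIM and of these keratins could not be separated at this depth. Without KRT19, an alternative added after seeing the data, VIM held 50.0% (40.4% to 59.6%) and 62.3% (58.6% to 65.8%), a log2 difference of -0.72 (-1.33 to -0.12). The VIM to LMNA ratio was 4.67 against 6.11, a log2 difference of -0.39 (-1.39 to 0.72).

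**Figure D3:**
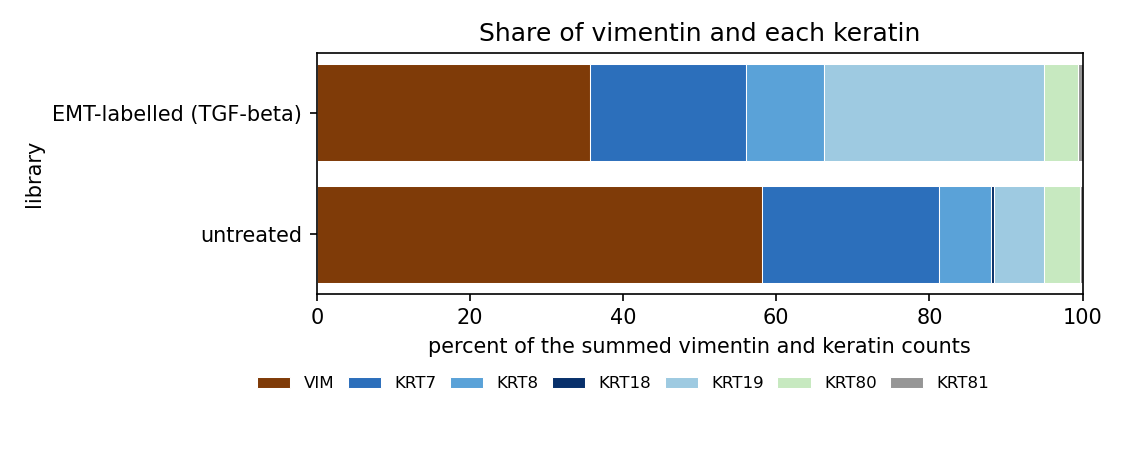
Percent of the summed VIM and keratin counts held by each gene in the 2 libraries (157 counts in the EMT-labelled and 777 in the untreated library). The VIM share is 35.7% above and 58.2% below, and KRT19 takes the largest added share in the EMT-labelled library.

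Per kilobase of merged exon length, the order of the levels also differed. In the untreated library VIM was first at 128 CPM per kilobase (116 to 140), then KRT7 at 61.3 (52.7 to 71.0) and KRT19 at 30.6 (22.8 to 40.3), with no overlap between these neighbours. LMNA at 14.9, KRT8 at 14.8 and KRT80 at 11.6 followed with overlapping intervals, and KRT81 (2.18) and KRT18 (1.31) were last. In the EMT-labelled library KRT19 came first at 34.1 CPM per kilobase (24.9 to 45.6), ahead of VIM (15.1 to 25.9) and KRT7 at 13.8 (9.46 to 19.5). KRT8 followed at 5.66 (3.23 to 9.19), LMNA at 3.04, KRT80 at 2.85 and KRT81 at 0.917. In this order KRT7 and KRT8 had intervals apart from each other, while those of KRT19 and VIM, VIM and KRT7, KRT8 and LMNA, and LMNA and KRT80 overlapped. Scaling by length is of limited use here, since the kit reads a segment of a gene and not its whole length.

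The exon entries showed where the counts lay. Overlapping exons of a gene were merged into blocks, numbered from the 5′ end. The block with the most counts over both libraries was set against the rest, a choice that the larger untreated counts mostly decided, so the 2 parts are described and not compared. In VIM, block 8 of 9 had 42.0 expected counts in the EMT-labelled library and 422 in the untreated library. That block held 67.4% and 92.2% of the gene's exon counts. Its log2 ratio was -2.99 (-3.49 to -2.53), while the rest of the gene had 20 counts against 35 and a log2 ratio of -0.47 (-1.34 to 0.36). Outside block 8 a difference was not detectable at this depth. Where in the gene the difference lies cannot be read from this, since the untreated counts mostly chose the block.

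LMNA block 15 of 22 had 0.773 expected counts against 58.0, and held 6.44% of the exon counts in the EMT-labelled library and 78.9% in the untreated library. Rounded to 1 against 58 counts, a ratio that rests on 1 count, its log2 ratio was -5.52 (-10.85 to -2.99), which is larger than that of the whole gene. In the other LMNA exons the 11 and 16 counts gave -0.20 (-1.46 to 0.99) on the log2 scale. In KRT80, block 4 of 8 had 0 counts against 27, or 7.13-fold lower with the 0 set to 3 counts. The exact upper limit of that block's log2 ratio was -2.44. The rest of KRT80 had 7 against 9. In the EMT-labelled library the most counts were in block 21 of LMNA, with 4.22 expected counts against 1, and in block 8 of KRT80, with 3 against 0. In both genes, the blocks were thus chosen by the untreated library alone.

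KRT7 kept its pattern. Block 3 of 13 had 25.0 expected counts against 154, which is 77.0% and 84.8% of the exon counts, with a log2 ratio of -2.29 (-2.96 to -1.67). Outside it, 7 counts stood against 28, and the log2 ratio was -1.66 (-3.10 to -0.44). KRT8 had nearly equal counts in its blocks 9 and 10 of 11, 7.26 and 7.74 expected counts in the EMT-labelled library and 25.6 and 26.4 in the untreated library. KRT19 counts were spread along the gene in both libraries: block 2 of 4 held 59.6% and 42.4%, and block 1 held 22.8% and 42.3%. Over 2671 genes with more than 1 block and at least 10 exon counts in each library, the block with the most counts held a median of 83.9% in the EMT-labelled and 81.0% in the untreated library. Its share was lower in the EMT-labelled library in 42.9% of those genes.

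**Figure D4:**
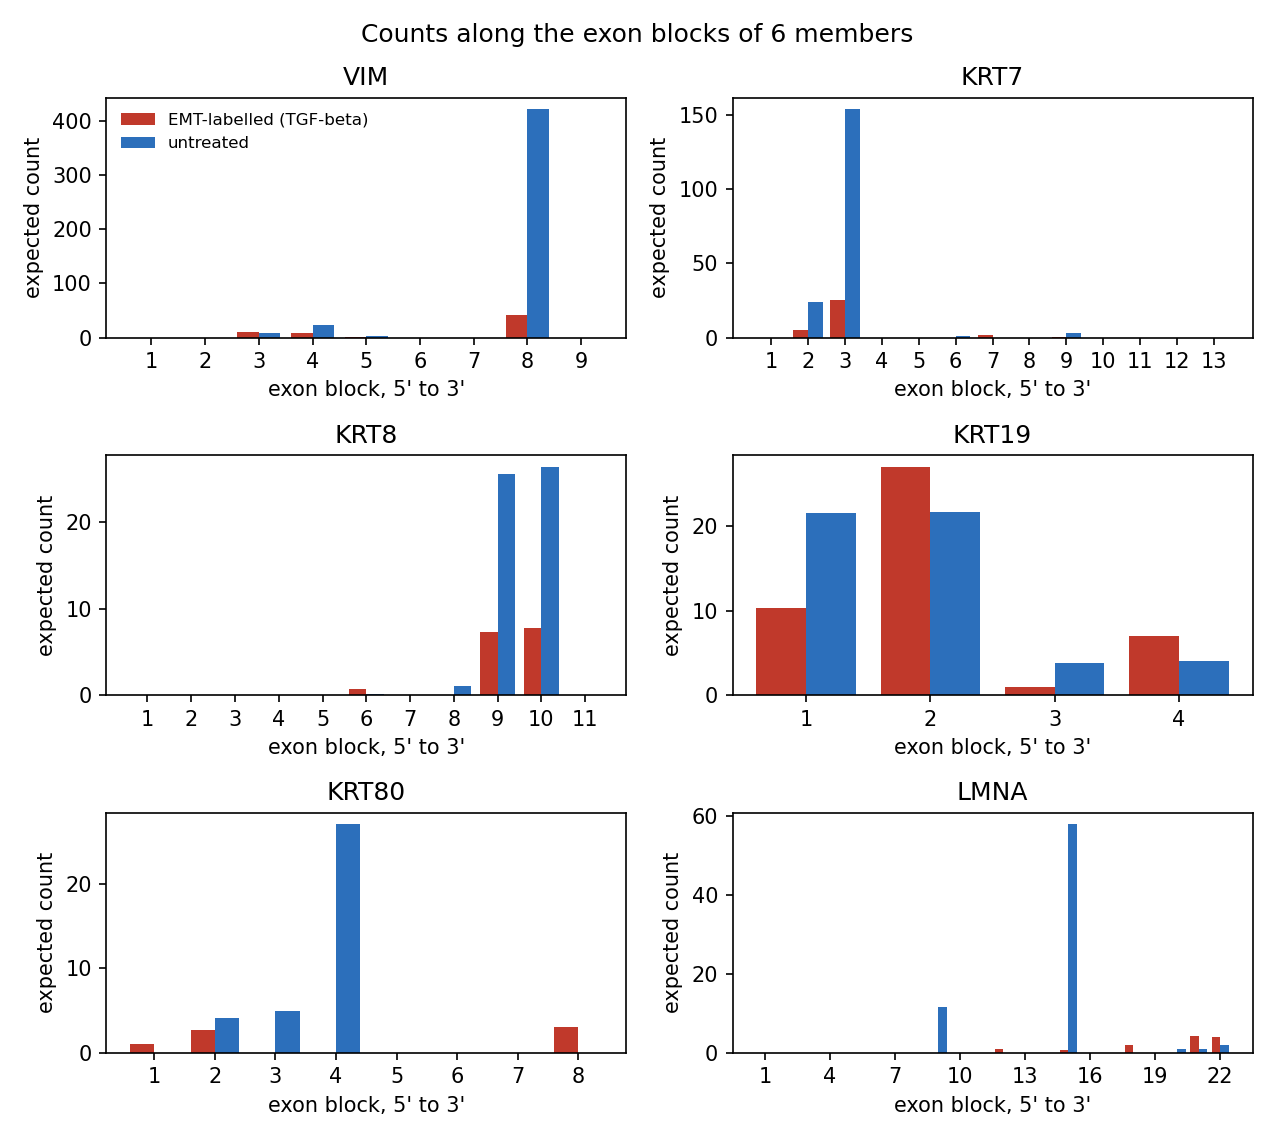
Expected counts in each exon block, from the 5′ to the 3′ end, of 6 members in the EMT-labelled (red) and untreated (blue) library; each panel has its own linear axis. The tallest untreated bars of VIM (422), KRT7 (154), LMNA (58.0) and KRT80 (27.1) are each in 1 block, and the KRT19 bars are spread.

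KRT8, KRT18 and KRT19 have many processed pseudogenes, copies that the counting may not separate from the parent gene. The file lists 50 for KRT8, 67 for KRT18 and 5 for KRT19, with a median identity to the parent transcript of 89.6%, 90.3% and 80.8%. The KRT18 exon (exon 6 of 7, chr12:52952119-52952342, plus strand, 224 bases) is printed with the stretch of KRT18P42, the pseudogene with the most counts, that aligns to it. They are identical at 202 of 224 positions (90.2%), and capitals mark the 22 bases that differ from KRT18.
KRT18: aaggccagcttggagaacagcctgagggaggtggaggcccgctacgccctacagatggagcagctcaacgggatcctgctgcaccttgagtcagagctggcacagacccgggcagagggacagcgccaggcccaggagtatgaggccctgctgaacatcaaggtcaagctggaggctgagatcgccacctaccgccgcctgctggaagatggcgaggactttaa
KRT18P42: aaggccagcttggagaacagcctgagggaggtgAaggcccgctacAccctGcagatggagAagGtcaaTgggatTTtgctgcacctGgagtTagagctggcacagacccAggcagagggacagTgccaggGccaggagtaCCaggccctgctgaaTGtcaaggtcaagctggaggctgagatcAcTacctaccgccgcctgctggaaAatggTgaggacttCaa

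The pseudogenes held more counts than the KRT8 and KRT18 genes themselves. KRT18 had 0 counts against 3, and its pseudogenes 215 against 57. KRT18P42 (hg19 chromosome 5, 108924039 to 108925293) alone had 161 counts in the EMT-labelled library and 18 in the untreated library, which is a log2 ratio of 3.50 (2.79 to 4.29). KRT8 had 16 counts against 53, and its pseudogenes 127 against 103, so that the parent held 11.2% of the family's counts in the EMT-labelled and 34.0% in the untreated library. With the pseudogenes added, the KRT8 family had a log2 ratio of 0.21 (-0.13 to 0.55) in place of -1.39, and the KRT18 family 2.18 (1.76 to 2.61). The KRT19 family stayed level at -0.02 (-0.49 to 0.44), with 26 pseudogene counts against 40. That sum pools KRT8 copies of 73.7% to 97.1% identity, which need not share reads with KRT8 equally. The closest, KRT8P3, had 1 count against 9, while KRT8P38, at 75.5%, had 13 against 0. The direction of KRT8 thus changes when all its copies are included, and is uncertain.

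**Figure D5:**
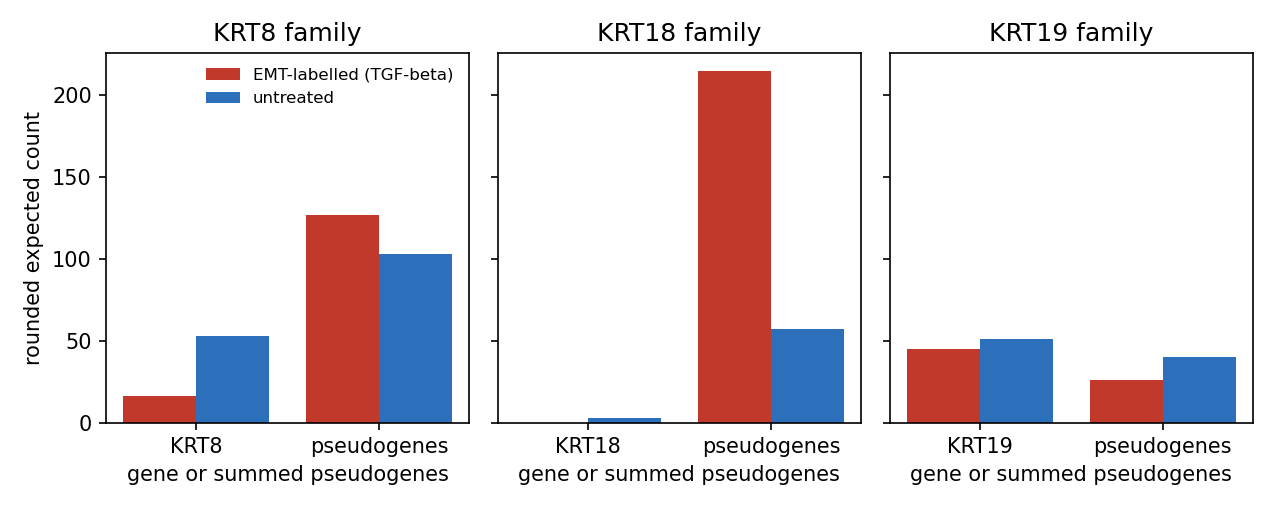
Rounded expected counts of KRT8, KRT18 and KRT19 and the summed counts of their pseudogenes in the EMT-labelled (red) and untreated (blue) library. The KRT18 pseudogenes reach 215 and 57 counts while KRT18 itself has 0 and 3.

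VIM, KRT7 and LMNA had next to no such copies. VIMP1 had 2 counts against 0, and no pseudogene named for KRT7 or LMNA was listed. The antisense gene VIM-AS1, which overlaps the 5′ part of VIM, had 6 counts against 5. RP11-124N14.3, listed on the opposite strand within VIM, had 1 against 2. How strand was treated is not given in the sources used here, and reads in the overlaps cannot be told apart. Block 8 of VIM lies outside both of these genes. KRT8 and KRT18 overlap on opposite strands at their 5′ ends, where the exon blocks of both genes had 0 counts in both libraries. KRT86, a hair keratin much like KRT81 whose listed span overlaps it, had 7 counts against 2, and KRT83 had 3 against 3.

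Other keratins were summed for comparison. The list of 48 further keratins, mostly of skin, hair and stratified epithelia, had 228 counts in the EMT-labelled and 168 in the untreated library, against 101 and 325 for the 6 members. Of the 23 that passed the filter, 10 were higher by 2-fold or more, 0 were lower by as much and 13 lay between, 5 of those below 0. Nothing is read from that count, since 6 of the 10 (KRT17, KRT34, KRT2, KRT6A, KRT74 and KRT86) passed only through the EMT-labelled library, with 1 to 3 counts in the untreated library. Only 6 of the 23 reached 20 CPM in 1 library. KRT76, KRT24 and KRT15 did so only in the EMT-labelled library and KRT5 only in the untreated library, so nothing is read from their directions as a group. KRT76, an oral epithelial keratin, had 36 counts against 7 (log2 ratio 2.70, 1.51 to 4.11). KRT38, a hair keratin, had 42 against 25 (1.08, 0.34 to 1.86), and KRT24 had 12 against 4 (1.92, 0.20 to 4.01). For KRT15, KRT5 and KRT78, keratins of stratified epithelia, the interval included no change: 13 counts against 8 (1.04, -0.34 to 2.51), 11 against 17 (-0.29, -1.53 to 0.89) and 24 against 21 (0.53, -0.38 to 1.45).

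Of 11 type III and IV filament genes other than vimentin, 10 passed, 3 of them higher by 2-fold or more (22.0% of all genes) and 1 lower (26.7%), and the median was 0.73 on the log2 scale. The lower gene was BFSP1, a lens filament gene, with 3 counts against 10 (-1.40, -3.90 to 0.56). NES, the nestin gene of progenitor cells, had 38 counts against 16 (1.58, 0.71 to 2.53), and INA, a neuronal filament gene, had 42 against 30 (0.82, 0.11 to 1.55). GFAP, the astrocyte filament, had 13 against 7 (1.23, -0.20 to 2.79) and NEFM 13 against 6 (1.45, -0.04 to 3.13). For these last 2 genes the interval included no change.

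Around lamin A, genes of the lamina and nuclear envelope were mixed. Of 20 listed, 17 passed, 5 of them lower by 2-fold or more and 3 higher, with a median of -0.66 on the log2 scale. Those shares are near the 26.7% and 22.0% of all genes. The higher genes LBR and SUN2 passed the filter only through the EMT-labelled library, and the lower genes BANF1 and EMD only through the untreated library. EMD, which encodes the lamin-binding membrane protein emerin, had 2 counts against 31 (-3.62, -6.73 to -1.64). SUN1, which ties the lamina to the cytoskeleton, had 9 against 86 (-2.92, -4.10 to -1.93), and SYNE1, a nesprin that SUN proteins anchor, had 14 against 39 (-1.14, -2.14 to -0.23). LEMD2, of the inner nuclear membrane, had 14 against 29 (-0.71, -1.75 to 0.25). The B-type lamins did not share the whole-gene LMNA ratio: LMNB2 had 20 against 31 (-0.30, -1.18 to 0.56) and LMNB1 7 against 4 (1.14, -0.83 to 3.36), both within counting error. Outside block 15, which the untreated library alone chose, LMNA itself had 11 against 16 (-0.20, -1.46 to 0.99).

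Plakins and desmosome proteins, which anchor keratin filaments, had 14 of 15 genes past the filter. Of these 3 were lower and 3 higher by 2-fold or more, near the 26.7% and 22.0% of all genes, around a median of 0.26 on the log2 scale. All 3 higher genes passed the filter only through the EMT-labelled library, with 1 to 3 counts in the untreated library, so nothing is read from their number. JUP, which encodes plakoglobin of the desmosome plaque, had 3 counts against 44 (-3.54, -5.87 to -1.90), and the plakophilin gene PKP3 had 7 against 38 (-2.10, -3.51 to -0.92). EPPK1, the epiplakin gene, went the other way with 62 against 49 (0.68, 0.11 to 1.25). DST, the dystonin gene, had 19 against 12, with an interval of -0.12 to 2.17. PLEC, whose product plectin links vimentin and keratin filaments, had 112 against 115 (0.30, -0.09 to 0.69).

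Kinases and 14-3-3 partners that act on vimentin and keratins had 15 of 18 genes past the filter. Of these 6 were lower by 2-fold or more and 2 higher, beside 26.7% and 22.0% of all genes (median -0.15 on the log2 scale). Both higher genes passed the filter only through the EMT-labelled library. Some of the lower ones, YWHAB among them, passed only through the untreated library. YWHAE, a 14-3-3 protein, had 11 counts against 200 (-3.85, -4.87 to -2.98). YWHAB had 0 against 40, or 10.6-fold lower with the 0 set to 3 counts, and the exact upper limit of its log2 ratio was -3.04. PAK1, a kinase that phosphorylates vimentin, had 5 against 17 (-1.43, -3.22 to 0.07), an interval that includes no change.

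The other EMT genes on the list, mainly cadherins and transcription factors, had 9 of 10 past the filter. Of these 1 was lower and 2 higher by 2-fold or more, beside 26.7% and 22.0% of all genes. The 2 higher were epithelial genes, CDH1 (4 counts against 1) and EPCAM (7 against 4), with intervals that included no change. CDH1 passed the filter only through the EMT-labelled library and SNAI2 only through the untreated library. The lower gene was SNAI2, which encodes the repressor Slug, with 0 counts against 11, or 2.91-fold lower with the 0 set to 3 counts. The exact upper limit of its log2 ratio was -0.99, just inside 2-fold. CDH2, the mesenchymal cadherin gene, and SNAI1, which encodes the repressor Snail, each had 11 counts against 25 (-0.85, -2.02 to 0.23). TWIST2, a further EMT transcription factor gene, had 14 against 10 (0.82, -0.45 to 2.15). The intervals of CDH2, SNAI1 and TWIST2 included no change.

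Epithelial markers other than the keratins had few counts in both libraries. EPCAM had 7 against 4, CDH1, the epithelial cadherin gene, 4 against 1, and CLDN4, CLDN7, ESRP1 and GRHL2 between 3 and 9 in each. The whole list of 10 summed to 127 and 313 counts. Of the 9 that passed the filter 2 (KRT7 and KRT8) were lower and 2 (CDH1 and EPCAM) higher by 2-fold or more. Over all genes 26.7% were lower and 22.0% higher by that rule. Markers of other cell types were checked in the same way. The 10 fibroblast markers summed to 419 and 271 counts, of which COL1A1, a collagen chain, had 356 and 196 (1.20, 0.94 to 1.46). PDGFRB had 48 and 52 (0.22, -0.38 to 0.81), and LUM and FAP had 0 in both libraries. Of the 6 that passed 0 were lower and 2 higher, beside 26.7% and 22.0% of all genes. The higher gene other than COL1A1 passed only through the EMT-labelled library. The 10 leukocyte markers summed to 17 and 58 counts, and CD79A and LYZ had 0 in both. Of the 7 that passed 4 were lower and 1 higher, beside the same shares of all genes. Each of those lower or higher genes passed only through the library where it was higher, so nothing is read from their number. The 9 endothelial markers found summed to 383 and 773, of which ROBO4 alone had 333 and 714, and EMCN had 0 in both. The part of other cells in the members' ratios was not tested.

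The genes nearest to VIM in pattern included translation and actin genes. Among 73 genes whose summed count was within 20% of VIM's, the 5 with the nearest log2 ratio were GNB2L1 (-3.24), PFN1P1 (-2.11), EEF1A1 (-3.42), ACTB (-3.43) and RPS6 (-3.58), at distances of 0.56 to 0.91 on the log2 scale. GNB2L1 encodes a ribosome-bound scaffold, PFN1P1 is a profilin pseudogene, EEF1A1 a translation elongation factor, ACTB beta-actin and RPS6 a ribosomal protein. Likeness was measured by 1 ratio over 2 libraries only, and all 5 ratios lay outside the VIM interval of -3.10 to -2.27. By the 2-fold rule 28 of the 73 genes (38.4%) were lower and 12 higher, and 19 had a lower ratio than VIM.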

How the data were processed

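The authors deposited expected counts, estimated values with decimals that are not normalized, for genes, transcripts and exons, with 1 column per library per the file headers. Library preparation is as the labels' protocols state it. Per the submitters' processing notes, hg19 and DESeq were used, with no role stated. Neither the aligner nor the counter nor the strand setting is given in the sources used here.

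Gene entries were rounded and scaled with TMM (edgeR 4.0.16 under R 4.3.3, factors 0.946 and 1.06). Ratios are the EMT-labelled over the untreated library with no pseudocount. No ratio is printed where both counts were at or under 3, while tallies and medians keep such genes, with a count of 0 set to 3. Ratio intervals follow from the exact binomial interval of the EMT-labelled library's part of both counts (scipy 1.17.1). The interval function was tested on simulated Poisson counts only. These hold no PCR copies and no reads shared among gene copies, so the test cannot show how well the intervals cover in these data. Exon entries need not sum to the gene's count. Alignments used Biopython 1.88.

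The members, lists and rules were chosen with earlier results of these data known. The rule named the 8 members, up to 4 genes of each list with the largest log2 ratio in either direction among those with at least 20 CPM in 1 library, GAPDH, ACTB, COL1A1 and the 5 genes nearest to VIM. Some housekeeping, ribosomal and marker genes it gave are not described. LMNB1, LMNB2, LBR, SUN2, BANF1, PLEC, BFSP1, SNAI2, 6 low keratins, KRT83, KRT86, the epithelial markers, the pseudogenes and the genes at 0 were named outside that rule, after their values were seen. Some exon sequences and 1 gene that the rule gave, 1 of the 2 higher genes among the kinases and partners, are not reported here.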

Additional observations from a re-analysis of the deposited data

How the results depend on the processing

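No paired analysis was possible because each group has 1 library, and no library could be left out. Of the alternative values of the 6 members' log2 ratios, 43 stayed within the counting interval, 2 moved outside it and 6 turned a lower gene to higher. Within its interval, KRT19 also fell just under 0 with DESeq2 size factors (-0.064), total counts (-0.0042) and its pseudogenes added (-0.022). Scaling on the ribosomal protein genes shifted every log2 ratio by 3.53 and gave 0.85 for VIM, 1.38 for KRT7, 2.13 for KRT8, 3.68 for KRT19, 1.499 for KRT80 and 1.24 for LMNA, with 0 members at least 2-fold lower and 5 higher. Over all genes it gave 21024 higher and 112 lower. Of the genes called higher or lower, the higher ones were thus 99.5%, against 45.2% with TMM (3391 and 4111). That share was 34.1% with DESeq2 size factors (2463 higher, 4753 lower; shift -0.22), 33.9% at 20 CPM (986 and 1921), 33.6% at 100 CPM (176 and 348) and 48.2% at 1 CPM or without a filter (6903 and 7430). It was 38.7% with total counts (shift -0.16), and higher calls outnumbered lower ones with the upper quartile (3957 and 3887, 50.4%; shift 0.08) and with total counts without the top genes (4688 and 4331, 52.0%; shift 0.10). At 100 CPM 3 members passed and all 3 were lower, but they passed only through the untreated library. Using only the exon block with the most counts, LMNA had -5.52, a ratio that rests on 1 count in a block that the untreated library alone chose. KRT8 with its pseudogenes, added after seeing the data, had 0.21. The log2 difference of the VIM to keratin ratio was -2.88 with the pseudogenes of KRT8 and KRT18 added, and, as alternatives added after seeing the data, -0.72 without KRT19 and -0.55 against KRT7 and KRT80 only. The cause of these moves was not tested. Depth limits KRT18 and KRT81, where no ratio could be given.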
